A study of Gallus gallus with 7 samples.

Results

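Intergenic regions lying more than 1 kb and at most 20 kb from the nearest transcription start site (TSS) were examined in chromatin of chicken neural crest cells. A region of the deposited chromatin table entered the set if it lay on chromosomes 1 to 10, overlapped no gene span of the deposited gene table and had its nearest TSS within those limits. The set held 1379 regions, which were 16.6% of the 8323 regions on those chromosomes and 5.41% of all 25469 regions. They are called proximal intergenic regions here. Among the regions of the deposited chromatin table, position alone chose them. Whether measured signal had decided which regions that table lists was not tested.

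All cells came from wild-type chicken embryos staged after Hamburger and Hamilton (HH). The vagal part of each embryo was dissociated and cells positive for a fluorescent reporter were sorted. Chromatin was collected at HH18 from cells positive for the E2:citrine reporter, electroporated at HH8, as 2 libraries each of sox10, tfap2B and input. For the pull-downs a factor carrying an Avi tag was electroporated together with BirA, an enzyme that adds biotin to that tag, and streptavidin beads were used in place of an antibody, so the factor pulled down was introduced into the cells. No pull-down without a tagged factor was among the libraries. The RNA set was 1 library at HH10 from cells positive for NC2:citrine, electroporated at HH4, so it differs from the chromatin in stage and in reporter. The labels do not say whether replicates came from separate embryos, so p-values measure the spread between these libraries, which may be technical.

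Neural crest cells leave the dorsal neural tube and give rise to neurons, glia, pigment cells and connective tissue, and those of the vagal level form much of the enteric nervous system. Sox10 is an HMG-box transcription factor that neural crest cells use to stay multipotent and to become glia or pigment cells, and tfap2B is an AP-2 family transcription factor of the early neural crest. Such factors are known to bind both at promoters and at enhancers, which can lie in introns or between genes at a distance from the gene they act on. The nearest TSS is therefore a landmark here, and the target gene of a region was not measured.

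Every proximal intergenic region was 500 bp wide. The median distance to the nearest TSS was 6.93 kb, with quartiles of 3.31 and 12.0 kb. A total of 1078 regions (78.2%) lay upstream of the nearest TSS and 301 (21.8%) lay downstream, beyond the far end of that gene. A downstream place within 20 kb requires a short gene, and the median span of the nearest gene was 2.33 kb for downstream regions against 15.5 kb for upstream ones. Flanking genes were divergent around 530 regions, in tandem around 679 and convergent around 161, and 9 regions lacked a gene on one side. The median gap between the flanking genes was 29.7 kb. The median distance to the next proximal intergenic region was 261 kb. Another of the set lay within 5 kb of 175 (12.7%), and any region of the table within 5 kb of 314 (22.8%). Chromosome 1 held 325 of them, chromosome 2 held 233 and chromosome 3 held 195. At the inner limit the members closest to it lay 1.001 and 1.002 kb from a TSS and the nearest excluded regions 0.976 and 0.992 kb. At the outer limit the corresponding distances were 19.992 and 19.957 kb inside and 20.005 and 20.016 kb outside.

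The deposited chromatin values are whole reads multiplied by 1 constant per library and are called scaled reads. Reads in all regions numbered from 1366132 to 3498728 in the pull-downs and were 7989029 and 13921317 in the inputs. No region of the table has fewer than 1 listed read in any library, and 0 and 1 can therefore not be told apart. Over the proximal intergenic regions the median number of recovered reads was 103 and 54 for sox10, 146 and 55 for tfap2B, beside 109 and 434 for input. The pull-downs were rarely at the floor: 0 and 0 of these regions were listed at 1 read in sox10, and 6 and 1 in tfap2B. Each input had 135 such regions.

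Among these classes the sox10 medians stayed within a narrow range, while the input medians were lower in regions farther from a TSS. The median proximal intergenic region had 124 and 126 scaled reads for sox10, 131 and 115 for tfap2B, beside 75.7 and 157 for input. Regions within 1 kb of a TSS (4329 regions) had medians of 129 and 129 for sox10, 185 and 144 for tfap2B, beside 130 and 245 for input. Intergenic regions over 20 kb from a TSS (1331 regions) had medians of 117 and 122 for sox10, 74.3 and 79.1 for tfap2B, beside 38.2 and 15.2 for input. In all 6 libraries the proximal intergenic median lay between those of these 2 classes. Regions that overlapped a gene but lay over 1 kb from a TSS (1284 regions, median distance 13.5 kb) had medians of 132 and 138 for sox10, 88.1 and 91.6 for tfap2B, beside 43.8 and 48.6 for input. Their input was thus below that of the proximal intergenic regions although they overlapped genes.

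Within each library, the log2 ratio of the proximal intergenic median to the median within 1 kb of a TSS was -0.05 and -0.03 for sox10, -0.50 and -0.33 for tfap2B, beside -0.78 and -0.64 for input. The log2 ratio to the median of intergenic regions over 20 kb was 0.09 and 0.05 for sox10, 0.81 and 0.53 for tfap2B, beside 0.99 and 3.37 for input. The groups did not overlap in either ratio, and tfap2B lay between sox10 and input. Each of these group differences had an exact two-sided permutation p of 0.333, the smallest that 2 libraries against 2 allow. A ratio within 1 library does not depend on how the libraries were scaled.

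**Figure D1:**
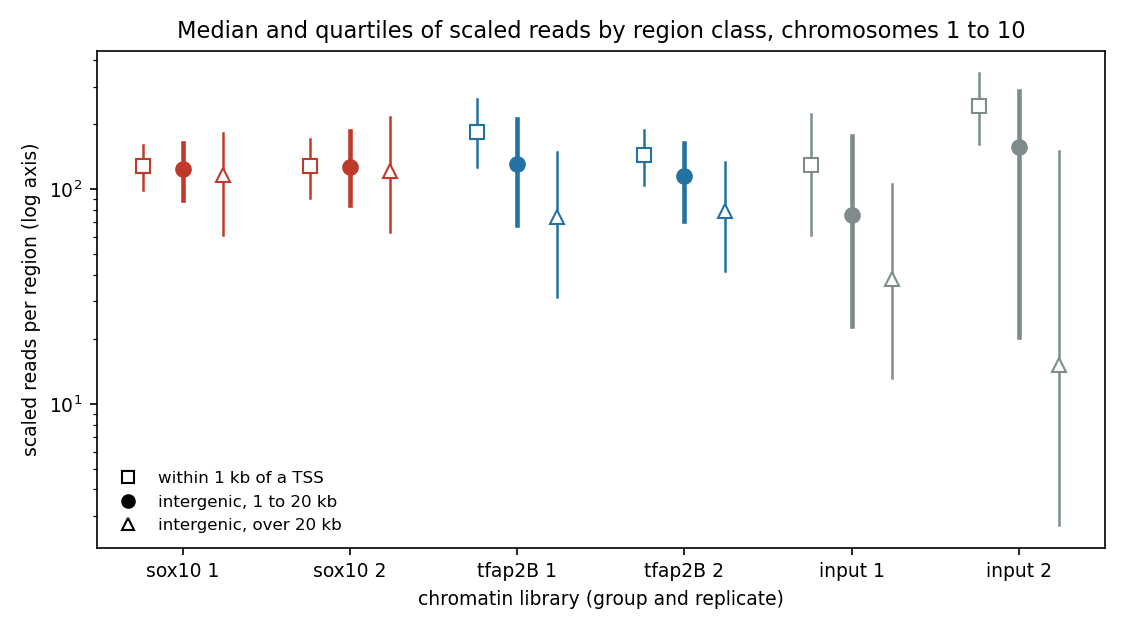
Median (symbols) and quartiles (lines) of scaled reads per region, on a log axis, in the 6 chromatin libraries for regions within 1 kb of a TSS, proximal intergenic regions (1 to 20 kb) and intergenic regions over 20 kb on chromosomes 1 to 10. The sox10 medians lie between 117 and 129 in all 3 classes, whereas those of input 2 drop from 245 through 157 to 15.2.

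Proximal intergenic regions held 16.8% and 16.6% of the sox10 reads that fell in regions of chromosomes 1 to 10, close to their 16.6% share of the regions. Their share was 14.9% and 15.7% in tfap2B and 16.7% and 15.2% in input, and exact binomial 95% intervals, which cover counting error only, spanned at most 16.5 to 16.7% in sox10 replicate 2. The sox10 share lay above both tfap2B shares (exact permutation p = 0.333) and overlapped the input shares (exact permutation p = 0.667). Regions within 1 kb of a TSS took 49.7% and 46.0% of the sox10 reads, 62.0% and 58.4% of the tfap2B reads and 57.4% and 66.1% of the input reads.

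The inputs were also the most uneven libraries over these regions. The upper quartile was 1.85 and 2.22 times the lower one in sox10, 3.13 and 2.32 times in tfap2B, and 7.67 and 14 times in input. Replicates differed by more than 2-fold at 84 regions (6.09%) for sox10, at 301 (21.8%) for tfap2B and at 714 (51.8%) for input. Over the 1379 regions, Pearson's r of log2 scaled reads was 0.84 for the sox10 pair, 0.70 for the tfap2B pair and 0.70 for the input pair. It ranged from 0.26 to 0.58 for pairs of a sox10 and a tfap2B library, from 0.23 to 0.56 for tfap2B with input, and from -0.23 to -0.05 for sox10 with input. Region by region, tfap2B thus correlated positively with the input in all 4 pairs and sox10 in none. These correlations are a description: the regions share libraries and depth and are no replicates.

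Sox10 was set against input to ask where its pull-down was enriched. With limma over all 25281 regions that passed a low-read filter, 280 proximal intergenic regions (20.3%) were higher in sox10 and 158 (11.5%) were lower at a Benjamini-Hochberg adjusted p under 0.05. All 1379 regions passed the filter. Of all regions tested, 18.4% were called higher and 22.3% lower, and of those on chromosomes 1 to 10, 16.2% and 11.4%. The share called higher is thus near the background, while it was 3.03% within 1 kb of a TSS, 32.2% in intergenic regions over 20 kb and 39.6% in gene-overlapping regions over 1 kb from a TSS. The 280 regions had median scaled reads of 199 and 250 for sox10, 71.6 and 87.5 for tfap2B, beside 6.25 and 1.09 for input. The 158 lower regions had medians of 111 and 92.4 in sox10 against 383 and 371 in input, so their input lay far above the chromosome 1 to 10 medians of 93.1 and 189. Under each of the 15 settings run, the share of proximal intergenic regions called higher was above that of regions within 1 kb and below that of intergenic regions over 20 kb. The difference between classes was described and not tested.

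These counts moved with the scaling and with single libraries. Called regions were higher in 63.9% of cases on the deposited scale, in 78.9% with TMM factors (300 higher, 80 lower), in 87.3% with DESeq2 size factors (316 and 46) and in 91.6% with total reads (359 and 33). The edgeR quasi-likelihood test called 206 higher and 49 lower. The median log2 difference of all regions itself was -0.40 on the deposited scale, -0.15 with TMM factors, 0.07 with DESeq2 size factors and 0.35 with total reads. Relative to that median the proximal intergenic regions stood 0.51 higher under all 4 scalings. A constant per library nearly cancels in this difference, so the 4 scalings could hardly move it. Over all settings it ranged from 0.35 without input replicate 1 to 0.54 without sox10 replicate 1. On the deposited scale, regions within 1 kb of a TSS stood at -0.16 and all regions on chromosomes 1 to 10 at 0.23. Gene-overlapping regions over 1 kb from a TSS stood at 1.64 and intergenic regions over 20 kb at 1.66, both above the proximal intergenic regions. Calls higher in sox10 numbered 109 without sox10 replicate 1, 64 without sox10 replicate 2 and 475 without input replicate 2. Calls lower numbered 15 with sox10 replicate 1 left out, 1 with sox10 replicate 2 left out, 103 and 105 with either tfap2B replicate left out, and 358 with input replicate 1 left out. With a sox10 or input library left out, the lone library of that group was assumed to vary like the other groups.

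Most calls above input lay where an input held few reads. Both inputs had 10 reads or more at 1104 proximal intergenic regions (80.1%), and there 64 (5.80%) were higher in sox10 and all of the 158 lower calls were found. Exactly 1 input fell below 10 reads at 174 regions (12.6%), of which 115 were called higher. Both fell below 10 at 101 regions (7.32%), and all 101 were called higher in sox10 and 91 (90.1%) higher in tfap2B. The input reads that define these groups also enter the contrasts, so the shares called are largely given by the grouping. They have no background over all regions beside them. Sox10 was also high at those 101 regions: the medians were 197 and 262 scaled reads for sox10, 55.5 and 68.7 for tfap2B, beside 0.695 and 0.363 for input, the value of 1 read. Where both inputs had 10 reads or more, the medians were 115 and 112 for sox10, 147 and 121 for tfap2B, beside 107 and 198 for input. Among the listed regions, sox10 was thus higher and tfap2B lower where the input was near empty. If signal decided which regions were listed, a region near empty in input could be listed only through a pull-down. The part of this in the sox10 level was not tested.

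The 64 regions called higher in sox10 with 10 or more reads in both inputs had medians of 189 and 205 scaled reads in sox10 and 23.6 and 21.2 in input. Both sox10 libraries exceeded their median over all placed chromosomes (124 and 122) at 50 of the 64, and edgeR also called 47. Their log2 differences ranged from 1.53 to 5.15.

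**Figure D2:**
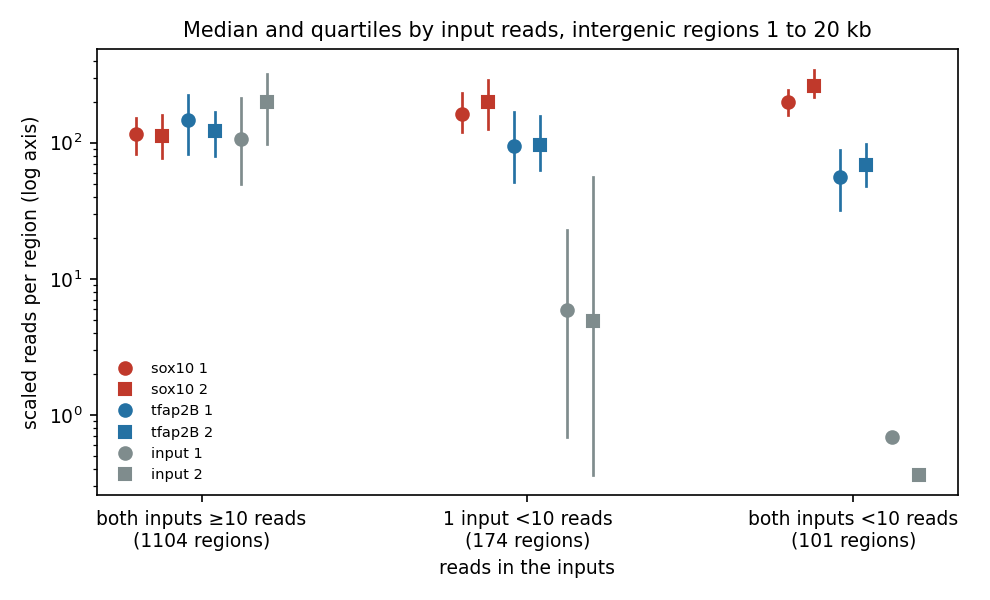
Median (symbols) and quartiles (lines) of scaled reads, on a log axis, in the 6 chromatin libraries for proximal intergenic regions grouped by reads in the inputs. From left to right the sox10 medians rise from 115 and 112 to 197 and 262 while those of tfap2B drop from 147 and 121 to 55.5 and 68.7. Input reads define the groups, so the input values are given by the grouping.

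The region with the largest difference from input was chr1:80667859-80668359 (galGal5), 19.2 kb upstream of its nearest TSS. Coordinates are as the deposited table gives them, and whether starts count from 0 or 1 is not stated in the sources used here. It had 538 and 590 scaled reads for sox10, 41.2 and 77.1 for tfap2B and 1 read for each input. Both sox10 libraries lay above both tfap2B libraries and both tfap2B libraries above both inputs. The log2 difference of sox10 from input was 8.54 ± 0.82 (SE, limma adjusted p = 0.0028). Because such a value depends on the pseudocount when the input is at 1 read, the sox10 mean was also set against 3 reads in each input, which gave a ratio of 355. The other 7 regions named by the rule for this comparison differed by 7.79 to 8.16, and 7 of the 8 had 1 read in both inputs. EdgeR called all 8.

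Among them chr1:50620846-50621346, 4.05 kb upstream of its nearest TSS, had 412 and 454 scaled reads in sox10 and 61.7 and 60.4 in tfap2B. The region chr5:48179013-48179513, 17.99 kb downstream of its nearest TSS, had 393 and 402 in sox10 and 71.6 and 85.4 in tfap2B. At both, as at the first region, sox10 exceeded tfap2B without overlap. The region chr1:17415-17915, close to the start of its chromosome, stood apart, with 180 and 620 for sox10 and 243 and 346 for tfap2B.

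Regions lower in sox10 than in input had inputs far above the set's medians of 75.7 and 157. The largest difference was at chr2:447975-448475, 2.92 kb downstream of its nearest TSS, with 97.3 and 84.2 scaled reads for sox10, 88.6 and 165 for tfap2B, beside 2800 and 774 for input. Its sox10 log2 difference was -4.01 ± 0.65 (SE, limma adjusted p = 0.00504). At chr1:76658536-76659036, 17.2 kb downstream of a TSS, the inputs held 4060 and 1172 scaled reads, and sox10 177 and 150. Both sox10 libraries lay below both inputs at each region, as the rule for naming regions required. The 8 regions named in this direction differed by -4.01 to -3.17, and edgeR called all 8.

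The proximal intergenic regions were also ranked by pull-down signal. The region chr1:188381838-188382338, 19.0 kb downstream of its nearest TSS, ranked highest in both factors, with 1565 and 1582 scaled reads for sox10, 1485 and 1341 for tfap2B, beside 8579 and 3843 for input. It was lower than input for sox10 (log2 difference -1.87 ± 0.51 SE, limma adjusted p = 0.0251) and for tfap2B (-2.02 ± 0.51 SE, limma adjusted p = 0.0245), though edgeR called neither. None of the 6 regions that ranked in the top 5 of sox10 or of tfap2B was called higher than input for either factor. In the whole set 20.3% were called higher for sox10 and 14.6% for tfap2B. These 6 do not stand for high signal in general, since the 280 regions called higher had sox10 medians of 199 and 250.

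Tfap2B was set against the same 2 inputs. Limma called 201 proximal intergenic regions (14.6%) higher in tfap2B than in input and 85 (6.16%) lower. Of all regions tested 10.8% were called higher and 17.4% lower, and on chromosomes 1 to 10, 11.5% and 6.03%. The share called higher was 3.10% within 1 kb of a TSS, 21.0% in intergenic regions over 20 kb and 26.8% in the gene-overlapping regions. The 201 regions had medians of 91.3 and 95.8 scaled reads in tfap2B, 195 and 246 in sox10, and 2.08 and 1.09 in input. Their tfap2B medians were below those of all proximal intergenic regions, 131 and 115, so as a set they were low in input rather than high in tfap2B. The 46 of them with 10 or more reads in both inputs had medians of 176 and 169 in tfap2B and 20.8 and 24.5 in input. Their sox10 medians were 169 and 187, both tfap2B libraries exceeded their placed medians at 27 of the 46, and edgeR called 38.

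The split between directions again moved with scaling, from 70.3% higher on the deposited scale to 84.8% with TMM factors (217 higher, 39 lower), 86.1% with DESeq2 size factors (223 and 36) and 92.8% with total reads (321 and 25). EdgeR called 166 higher and 29 lower, and limma 115 and 47 with only the tfap2B and input libraries in the fit. Relative to the median of all regions, which was -0.14 on the deposited scale and 0.65 with total reads, proximal intergenic regions stood 0.40 to 0.42 higher. Here too a constant per library nearly cancels, so the scalings could hardly move this difference. Over all settings it ranged from 0.37 without input replicate 1 to 0.51 without input replicate 2. On the deposited scale, regions within 1 kb of a TSS stood at -0.0045 and all regions on chromosomes 1 to 10 at 0.27. Gene-overlapping regions over 1 kb from a TSS stood at 1.13 and intergenic regions over 20 kb at 1.07, both above the proximal intergenic regions. Without tfap2B replicate 1 or 2 limma called 0 regions in either direction, where 322 and 285 had an unadjusted p under 0.05. Without sox10 replicate 1 or 2 it called 106 and 107 higher and 33 and 38 lower, without input replicate 1, 334 and 231, and without input replicate 2, 456 and 130. With tfap2B replicate 1 left out the median relative to all regions was 0.43, and with tfap2B replicate 2 left out it was 0.47. It was 0.42 with every library, so that median was not smaller in the 2 fits where all calls were lost.

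At the regions named for an excess of tfap2B over input, the inputs are those used for sox10, so the values of both factors are given side by side where they are named. At chr1:17415-17915 tfap2B had 243 and 346 scaled reads and sox10 180 and 620 against 1 read in each input. Tfap2B differed from input by 7.58 ± 0.86 on the log2 scale (SE, limma adjusted p = 0.00727). The tfap2B mean was 186 times the value of 3 reads in each input. At chr1:28630-29130 the tfap2B libraries had 282 and 433 and the sox10 libraries 193 and 693. At chr2:114713709-114714209 tfap2B had 237 and 229 and sox10 131 and 402. At chr5:39019650-39020150 tfap2B had 360 and 289 scaled reads and sox10 160 and 147, but the inputs held 32 and 1 reads, and edgeR did not call it. Tfap2B exceeded both inputs at all 4, as the rule for naming regions required. In the other direction the 8 named regions differed by -4.17 to -3.55. The largest, chr5:54899217-54899717, had 17.9 and 133 scaled reads in tfap2B and 1384 and 589 in input, and edgeR did not call it, while it called the other 7.

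Direct comparison of the factors leaves the inputs out. In the fit of the 4 pull-down libraries, limma called 86 proximal intergenic regions (6.24%) higher in sox10 than in tfap2B and 1 (0.0725%) lower. Of all regions tested 2.47% were higher and 0.103% lower, and on chromosomes 1 to 10, 5.15% and 0.12%. The share higher was 0.439% within 1 kb of a TSS, 10.4% in intergenic regions over 20 kb and 14.4% in the gene-overlapping regions. The 86 regions had medians of 251 and 310 scaled reads for sox10, 51.0 and 60.4 for tfap2B, beside 2.78 and 0.363 for input, with a median log2 difference of 2.37. Their sox10 medians were above the set's upper quartiles of 165 and 187, and their tfap2B medians below its lower quartiles of 68.0 and 70.8. At 81 of the 86 an input held fewer than 10 reads, and the part of this in the difference was not tested.

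EdgeR on the recovered reads of the same 4 libraries called 80 of the 86 and 0 lower. With the inputs in the fit limma called 0 in either direction, where 94 had an unadjusted p under 0.05. Limma also called 0 without sox10 replicate 1 and 0 without sox10 replicate 2, where 200 and 134 had an unadjusted p under 0.05. The spread in those fits came from the tfap2B pair alone, with 1 residual degree of freedom. Without tfap2B replicate 1 or 2 it came from the sox10 pair alone, again with 1. Counts from fits with a lone library therefore cannot show whether the calls, or the near absence of lower ones, hold. The median log2 difference of the proximal intergenic regions was -0.03 and -0.08 without sox10 replicate 1 and 2. Without tfap2B replicate 1 and 2 it was 0.03 and -0.15, against -0.06 with all 4 pull-downs. In the 10 fits with any call, those with a lone tfap2B library among them, the share higher exceeded that within 1 kb of a TSS. It also exceeded that of all regions, which include other chromosomes, and was below that over 20 kb. On chromosomes 1 to 10, where the set lies, the share higher with all 4 pull-downs was 5.15%, near the 6.24% of the set.

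**Figure D3:**
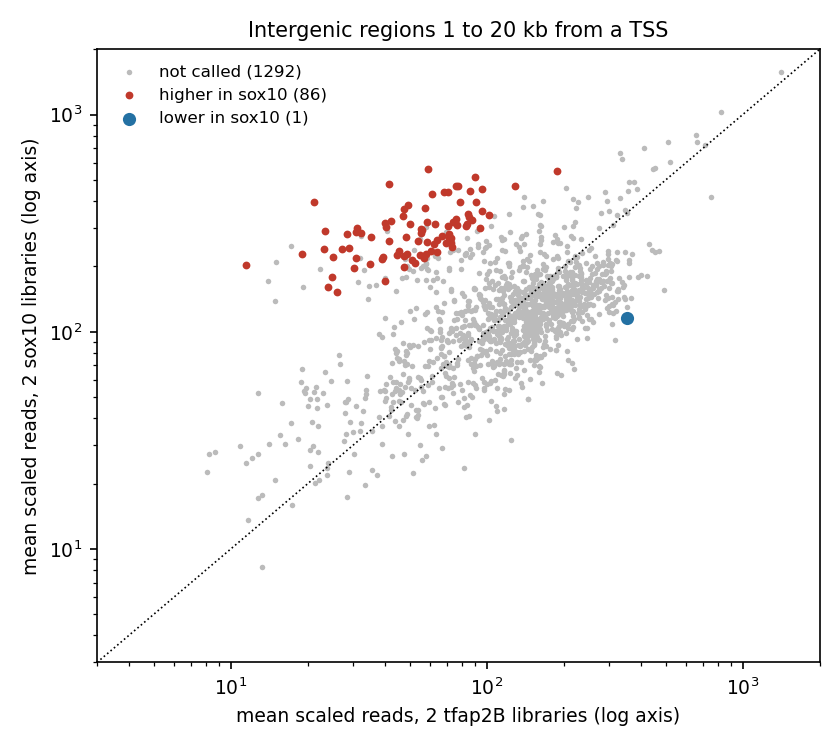
Mean scaled reads of the 2 sox10 libraries against those of the 2 tfap2B libraries for the 1379 proximal intergenic regions, both on log axes, with the line of equality dotted. The 86 regions called higher in sox10 form a band above the main cloud, and the 1 region called lower lies below it.

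The largest difference between the factors was at chr4:66409969-66410469, 2.61 kb upstream of the TSS of ENSGALG00000037496 and between divergent genes. It had 329 and 466 scaled reads for sox10, 8.95 and 33.3 for tfap2B and 1 read for each input. The sox10 libraries lay above the tfap2B libraries without overlap, as the rule for naming regions required. The means were 397 ± 96.4 and 21.1 ± 17.2 (SD, n = 2 each). The log2 difference was 4.41 ± 0.61 (SE, limma adjusted p = 0.0202).

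At chr2:14028238-14028738, 17.2 kb upstream of the TSS of ENSGALG00000007145, sox10 had 417 and 545 scaled reads, tfap2B 18.8 and 64.6, and the inputs 45 and 1 reads. The log2 difference was 3.73 ± 0.55 (SE, limma adjusted p = 0.0202). The region chr1:7871720-7872220, at the outer limit of the set, had 204 and 250 in sox10 and 2.68 and 35.4 in tfap2B, but edgeR did not call it. EdgeR called the other 7 of the 8 regions named, whose log2 differences ranged with it from 3.30 to 4.41.

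The single region lower in sox10 was chr3:48963316-48963816, 10.2 kb upstream of the TSS of ENSGALG00000036240. It had 126 and 105 scaled reads for sox10, 379 and 325 for tfap2B, beside 277 and 217 for input. Tfap2B was the highest group and sox10 the lowest, and none of the 3 groups overlapped. The rule for naming regions required this of sox10 and tfap2B but not of input. The difference of sox10 from tfap2B was -1.60 ± 0.34 (SE, limma adjusted p = 0.0455), edgeR did not call it, and tfap2B was not called above input there (log2 difference 0.52 ± 0.43 SE, limma adjusted p = 0.373).

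**Figure D4:**
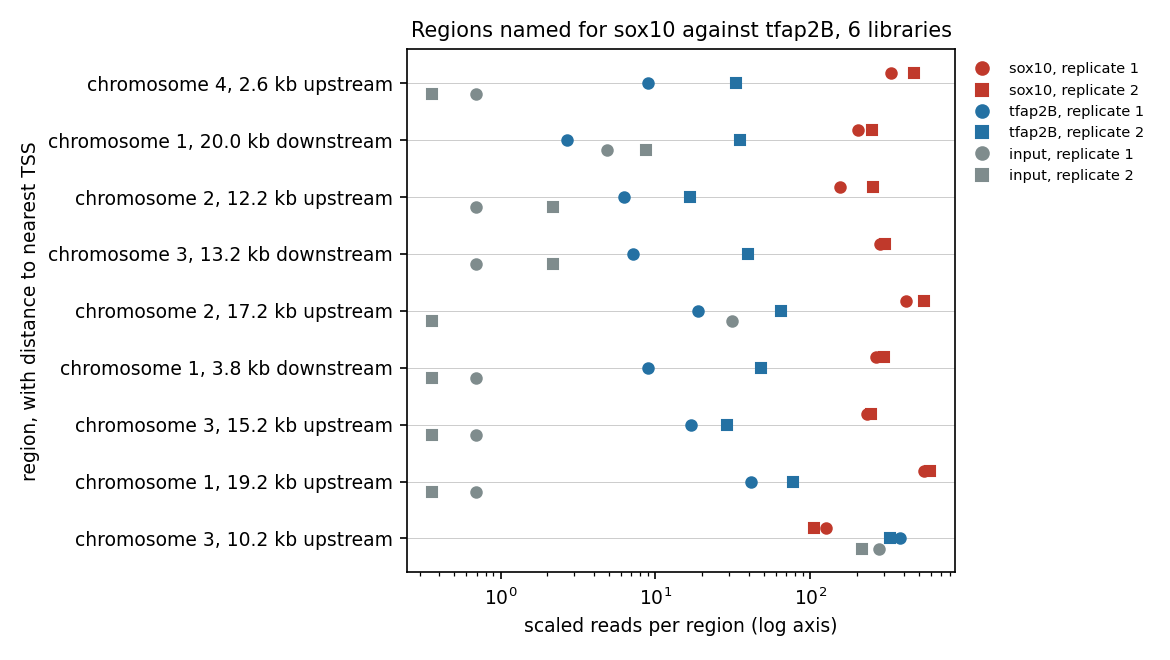
Scaled reads, on a log axis, in the 6 chromatin libraries (circles for replicate 1, squares for replicate 2) at the 8 regions named for higher and the 1 named for lower signal in sox10 than in tfap2B, each given by its chromosome and its distance to the nearest TSS. At the upper 8 the sox10 libraries lie between 155 and 590 and the tfap2B libraries between 2.68 and 77.1, and at the lowest the order is reversed.

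Within the set, calls higher in sox10 than in input were more frequent in bins farther from the TSS, and the other comparisons did not follow that order throughout. Sox10 exceeded input at 84 (15.8%) of the 532 regions over 1 to 5 kb from the TSS, at 80 (21.1%) of the 380 over 5 to 10 kb and at 116 (24.8%) of the 467 over 10 to 20 kb. For tfap2B against input the shares were 11.8%, 16.6% and 16.1%. For sox10 against tfap2B they were 4.51%, 4.21% and 9.85%, so that 46 of the 86 lay in the outermost bin. The log2 ratio of the median in the nearest bin to that in the outermost was 0.10 and 0.08 for sox10, 0.43 and 0.30 for tfap2B, beside 0.69 and 0.87 for input. The order of groups was the same as between classes, without overlap (exact permutation p = 0.333 for each pair, the smallest possible). Both inputs fell below 10 reads at 5.45% of the nearest bin and 8.78% of the outermost. From the nearest bin outward, both had 10 reads or more at 84.6%, 79.7% and 75.2% of regions. The part of input reads in the order of the bins was not tested. The outermost bin had a larger share than the nearest in all 15 fits for sox10 against input and in all 10 with a call for sox10 against tfap2B. Without sox10 replicate 2 the middle bin was the lowest for sox10 against input (4.51%, 3.16% and 6.00%). For tfap2B the outermost bin exceeded the nearest in 13 of the 14 with a call, with 7.28% against 7.33% without sox10 replicate 1.

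**Figure D5:**
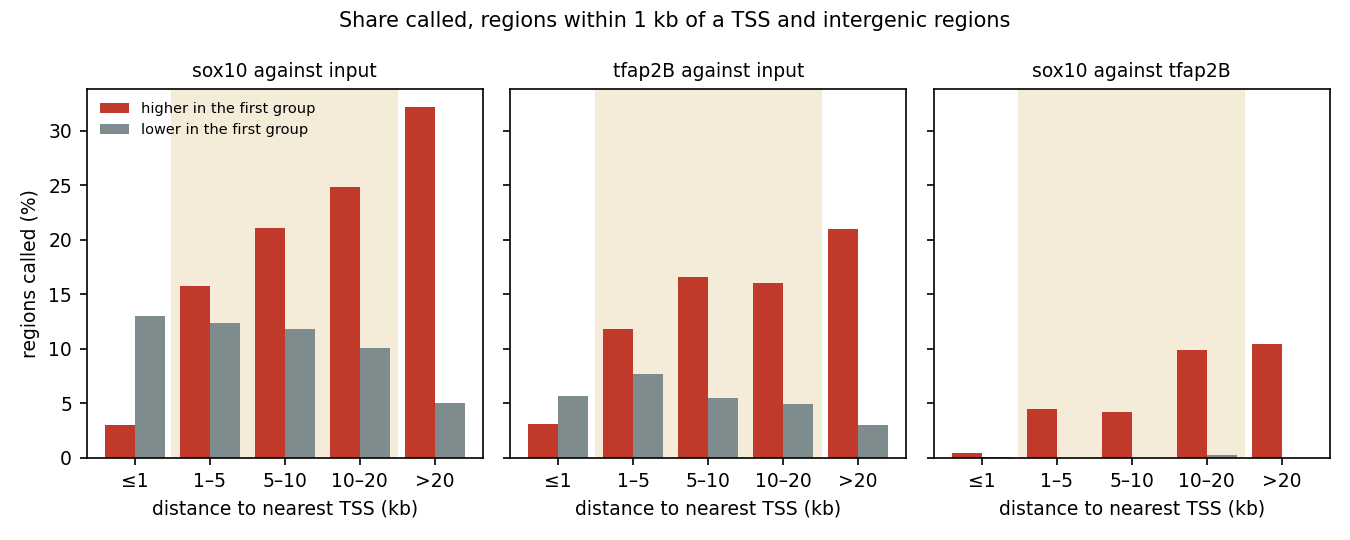
Share of regions within 1 kb of a TSS and of intergenic regions, on chromosomes 1 to 10, called higher or lower (limma adjusted p under 0.05) in each of the 3 comparisons, by distance to the nearest TSS in kb. The 3 bins of proximal intergenic regions are shaded, and gene-overlapping regions over 1 kb from a TSS are not drawn. The share higher in sox10 than in input runs from 3.03% within 1 kb through 15.8%, 21.1% and 24.8% to 32.2% over 20 kb.

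The calls also differed by side of the TSS. Downstream regions were called higher in sox10 than in input at 90 of 301 (29.9%), against 190 of 1078 (17.6%) upstream. For tfap2B against input the counts were 60 (19.9%) and 141 (13.1%), and for sox10 against tfap2B 33 (10.96%) and 53 (4.92%). The sox10 medians were 131 and 138 downstream and 123 and 124 upstream, while the input medians were 58.4 and 104 downstream and 79.6 and 171 upstream. Downstream shares exceeded upstream ones in each fit with a call, 15, 14 and 10 in the order of comparisons above. The margin was narrow for sox10 against input without sox10 replicate 2. For tfap2B against input it was narrow without either sox10 replicate, and the shares were 8.97% and 8.16% with only the 2 groups in the fit. Downstream regions lay farther out, with a median of 8.69 kb against 6.21 kb. In the nearest bin 8 of 79 downstream regions (10.1%) and 16 of 453 upstream ones (3.53%) were higher in sox10 than in tfap2B. The shares were 6.45% and 3.48% in the middle bin and 14.7% and 7.99% in the outermost. In the nearest bin both inputs had 10 reads or more at 74.7% of downstream and 86.3% of upstream regions. The parts of distance and of input reads in the difference by side were not tested.

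Convergent gene pairs, whose far ends face each other, flanked 161 regions, and 51 of these (31.7%) were higher in sox10 than in input and 17 (10.6%) higher than in tfap2B. Between divergent genes, whose starts face each other, the corresponding counts were 81 of 530 (15.3%) and 18 (3.40%). Tandem pairs lay between, with 144 of 679 (21.2%) and 51 (7.51%). The sox10 medians were 127 and 124 between convergent genes and 123 and 122 between divergent ones. The input medians were 54.2 and 77.7 between convergent genes and 78.9 and 169 between divergent ones. Both inputs had 10 reads or more at 72.7% of regions between convergent genes, 78.4% between tandem ones and 84.7% between divergent ones. The part of input reads in the difference by orientation was not tested. Over all regions on chromosomes 1 to 10, 16.2% were higher in sox10 than in input and 5.15% higher than in tfap2B. Orientation and side overlap by construction and were not separated. By chromosome the share higher in sox10 than in input ran from 14.5% on chromosome 5 to 23.7% on chromosome 1. The sox10 medians were 121 and 126 on chromosome 5 and 121 and 122 on chromosome 1, beside input medians of 110 and 212, and 56.3 and 108.

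Grouped by the pull-downs alone, 292 proximal intergenic regions (21.2%) were at or above the placed median in both sox10 libraries but not in both tfap2B libraries, and 174 (12.6%) the reverse. A further 290 (21.0%) met it for both factors and 623 (45.2%) for neither. The sox10 group had an input under 10 reads at 58.9% of regions, against 6.32% of the tfap2B group, 12.4% of those high in both and 8.99% of those high in neither. Input medians were 17.0 and 4.35 scaled reads in the sox10 group and 99.4 and 230 in the tfap2B group. They were 103 and 273 where both factors were high and 91.0 and 151 where neither was. Downstream regions made up 29.5% of the sox10 group and 16.7% of the tfap2B group. The placed medians were 124 and 122 for sox10 and 141 and 121 for tfap2B, and these groups are a description made on the same values, with no test. The groups were not counted over all regions, so their shares have no background beside them. How the listing of regions enters the shares with an input under 10 reads was not tested.

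The nearest TSS of the 1379 regions belonged to 1216 genes, of which 1084 had 1 region, 107 had 2, 20 had 3, 4 had 4 and 1 had 5. The files do not pair the gene IDs with names, so the labelled cell type was not checked against marker genes here. In the HH10 library of 28777461 counts these genes had a median of 7.66 CPM (counts per gene scaled to the library's total), and 304 (25%) were listed at 0. Genes nearest to regions within 1 kb of a TSS had a median of 35.2 CPM and those nearest to intergenic regions over 20 kb 2.43 CPM, so the proximal intergenic set lay between. With 1 RNA library, at an earlier stage than the chromatin, these levels have no replicate check.

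HH10 level of the nearest gene did not order the calls in 1 direction. The share higher in sox10 than in input was 28.5% where the nearest gene was listed at 0 CPM (358 regions), 15.8% both from 0 to 1 CPM and from 1 to 10 CPM, 17.3% from 10 to 100 CPM and 21.6% above 100 CPM (167 regions). The sox10 medians were 118 and 124 at 0 CPM, 126 and 126 from 10 to 100 CPM, and 139 and 147 above 100 CPM. In that order the input medians were 47.9 and 75.7, 96.6 and 195, and 72.3 and 180. Genes nearest to the 86 regions higher in sox10 than in tfap2B had a median of 9.0 CPM. ENSGALG00000037496 had 70.0 CPM (exact Poisson 95% interval 66.9 to 73.1) and ENSGALG00000007145 577 CPM (569 to 586). ENSGALG00000036240, next to the region higher in tfap2B, had 164 CPM (159.5 to 169). At the 5 genes with the highest HH10 level, from 903 to 1405 CPM, the nearest proximal intergenic region was called in none of the 3 comparisons. In the whole set 20.3% were called higher and 11.5% lower in sox10 than in input, so 5 regions cannot show a difference from the set.

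The gene with the most regions, ENSGALG00000039529 on chromosome 1, was listed at 0 CPM and had 4 regions upstream and 1 downstream. The downstream one, chr1:78458875-78459375, had 192 and 213 scaled reads for sox10, 109 and 169 for tfap2B, beside 3686 and 1099 for input, and was lower than input for both factors (sox10 log2 difference -3.31 ± 0.59 SE, limma adjusted p = 0.00702). The upstream one closest to the TSS, chr1:78452366-78452866, had 222 and 147 for sox10, 114 and 210 for tfap2B, beside 26.4 and 41.4 for input, and was higher than input for both (sox10 log2 difference 2.42 ± 0.63 SE, limma adjusted p = 0.0213). Between the downstream region and this upstream one, then, pull-down levels were alike while the inputs differed widely, and the calls had opposite signs. The gene's other upstream regions are not described here, so this pair does not stand for all of its regions.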

How the data were processed

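The submitters' processing notes name the build galGal5 and, without roles, DiffBind, DESeq2, Bowtie, featureCounts, Subread 1.4.5 and STAR 2.4.2a. The sources used here do not give how regions were called. The deposited chromatin values are a signal: with a tolerance of 0.01 read, 100.0% were whole reads times 1 constant per library (0.363 to 2.34). The deposited RNA values are counts per gene, from which CPM was computed. Its HH10 column occurs 2 times and was used 1 time, 21 columns of other samples were not used, and the sources used here do not give the strand setting, so overlapping genes on opposite strands cannot be told apart.

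Distances ran from the region's nearer edge to the 5′ end of each gene span. Regions were tested by limma-trend (limma 3.58.1) on log2(scaled reads + 1), a scale that understates changes of low regions. A low-read filter (filterByExpr of edgeR 4.0.16) removed 188 regions and left 25281, over which p was adjusted. Contrasts with input used all 6 libraries (3 residual degrees of freedom) and sox10 against tfap2B the 4 pull-downs (2). Alternatives were TMM factors, DESeq2 1.42.0 size factors, total reads, no filter, a pseudocount of 10, edgeR's quasi-likelihood test on recovered reads, a replicate block, other sets of libraries, and leaving out each library. A crossed block was added after seeing the data. The tests were run on simulated data with known changes, drawn with the same dispersion for all libraries. The spread here differed between groups, so that run does not give the error of these calls.

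Regions were named by a rule: up to 8 called regions per comparison and direction with the largest log2 difference, no overlap between groups and the higher group at or above its placed medians, 1 per nearest gene; the 5 ranked highest in each factor; regions of up to 5 genes with most regions; and the region nearest to each of the 5 genes highest at HH10. The 2 regions on either side of each distance limit were also given. The regions, lists and tests were chosen with earlier results of these data known. Of 24881 gene IDs 0 matched the RefSeq table. No genome was used, so sequences and motifs were not analysed here.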

Additional observations from a re-analysis of the deposited data

How the results depend on the processing

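For sox10 against input, the 280 regions called higher stayed within 1.5 times under every setting other than leaving out a library. The 158 called lower became 80 with TMM factors, 46 with DESeq2 size factors, 33 with total reads, 49 with edgeR and 96 with a replicate block. For tfap2B against input, the 201 called higher became 321 with total reads and 115 with only the 2 groups in the fit. The 85 called lower became 39, 36 and 25 with TMM factors, DESeq2 size factors and total reads, 29 with edgeR, 47 with only the 2 groups and 56 with a replicate block. For sox10 against tfap2B, the 86 called higher became 0 with all 6 libraries and 146 with a replicate block. The 1 called lower became 0 with all 6 libraries, with DESeq2 size factors and with edgeR, 2 with a pseudocount of 10 and with total reads, and 6 with a replicate block. The cause of these shifts was not tested.

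Leaving out each library moved the calls for sox10 against input from 64 to 475 higher and from 1 to 358 lower. For tfap2B against input they ranged from 0 to 456 and from 0 to 231, and for sox10 against tfap2B from 0 to 252 and from 0 to 244. In a fit that left a group with 1 library, the spread came from the other groups alone, so these counts are not comparable with those from every library. No named region reversed. The rule for naming regions required large differences and groups that do not overlap. Leaving out a library on the deposited scale could therefore not reverse a direction, and the absence of reversals is no check. Of 344 values of 41 named results under the other settings, 328 kept their direction and side of the threshold and 16 lost the call. With a library left out, 168 of 228 kept both and 60 lost the call.

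Replicate numbers are shared by the groups, but 2 pairs do not show a pairing. Deviations of same-numbered libraries had r of 0.05 for sox10 with tfap2B, -0.03 for sox10 with input and -0.27 for tfap2B with input. The crossed replicate block called 234 higher and 84 lower for tfap2B against input. The inputs had more reads in all regions than any pull-down, yet 58 proximal intergenic regions had 1 listed read in both. Such a value can stand for 0 or 1.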

Other observations

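At 5 proximal intergenic regions sox10 replicate 2 was more than 3-fold above replicate 1 while neither input had more than 3 reads. They were chosen after their values were seen, from 8 regions in which replicate 2 was that far above and 11 in which replicate 1 was. At chr1:35205678-35206178, 9.89 kb upstream of a TSS, the sox10 libraries had 51.7 and 182 scaled reads and the tfap2B libraries 134 and 133. At chr2:114713709-114714209 they had 131 and 402 in sox10 and 237 and 229 in tfap2B. At chr5:249677-250177 the sox10 values were 133 and 421, and the tfap2B values 201 and 227. The other 2, chr1:17415-17915 and chr1:28630-29130, had 180 and 620, and 193 and 693, in sox10. In tfap2B the libraries lay within 2-fold of each other at all 5, while the median ratio of the sox10 libraries over all 1379 regions was 1.04.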
